A study of Bos taurus with 10 samples.

Results

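*HSD3B1*, which codes for 3beta-hydroxysteroid dehydrogenase, and 9 other genes of steroid hormone synthesis were examined in single bovine early blastocysts with and without editing of *SOX2*. *HSD3B1* was chosen by its rise in the *SOX2* KO embryos, since its log2 fold change was the largest of 151 genes that were called higher without overlap of the groups and averaged 50 or more in *SOX2* KO. Its log2 fold change was 4.04, and that of the next gene, *MUC19*, was 3.85. The other 9 genes were taken as steps around it (*STAR*, *STARD3*, *CYP11A1*, *FDX1*, *FDXR*, *CYP17A1*, *CYP19A1*, *HSD17B1* and *STS*). All 10 were found among the 20112 genes of the table. The question was whether the other steps followed *HSD3B1*.

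Steroid hormones are made from cholesterol, which is carried to the inner mitochondrial membrane and cut there to pregnenolone by the enzyme CYP11A1. HSD3B1 turns pregnenolone into progesterone, CYP17A1 acts on the way to androgens, and CYP19A1 and HSD17B1 form oestrogens. In cattle the trophoblast of the placenta makes progesterone and oestrogens, and much of its oestrogen circulates as sulfate.

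The 5 WT embryos were injected as zygotes with mRNA of the cytosine base editor BE3 alone. The 5 *SOX2* KO embryos received the same mRNA together with a mixture of sgRNAs against *SOX2*, so both groups carried the editor. The embryos came from *in vitro* fertilization, were edited directly rather than bred from a line, and each was sequenced whole. The labels give day 7 after fertilization. The edited bases cannot be read from gene counts, and the genotypes are those that the authors assigned. The paper genotyped each sequenced blastocyst from part of its cDNA library. In other edited blastocysts of the paper, staining for SOX2 protein was strongly reduced. The edit was designed to place a premature stop codon in *SOX2*, so the level of its RNA does not show the genotype.

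Libraries were made by Smart-seq2, which primes polyadenylated RNA with oligo(dT). Each WT embryo had 2223670 to 5134855 reads on genes, and each *SOX2* KO embryo had 2578284 to 4337342. All levels below are normalized read counts, that is, reads over each embryo's DESeq2 size factor, and they are compared between embryos and not between genes, since they are not corrected for gene length. The targeted gene, *SOX2*, was at 56.5 to 93.4 in WT against 26.4 to 82.1 in *SOX2* KO, with overlap and a limma adjusted p of 0.167. The 18S ribosomal gene *RN18S1* held a share of 26.4% to 37.0% of reads among WT and of 32.5% to 44.95% among *SOX2* KO embryos. *XIST*, the RNA of the inactive X chromosome, was lowest in the WT embryo nc2 (11.9) and the *SOX2* KO embryo ko4 (33.7) and lay between 429 and 2819 in the other 8. Embryos are named by their column in the table (nc1 to nc5 for WT, ko1 to ko5 for *SOX2* KO), and values follow that order.

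*HSD3B1* was the member with the greatest difference between the groups. Its normalized read counts were 48.8, 13.3, 29.8, 82.4 and 144 in the WT embryos and 1424, 956, 913, 281 and 922 in the *SOX2* KO embryos. Every *SOX2* KO embryo was above every WT embryo, and the lowest *SOX2* KO embryo, ko4, was well apart from the other 4. The mean ± SD (n = 5 each) was 63.7 ± 51.7 in WT and 899 ± 407 in *SOX2* KO, a ratio of 14.1. These values come from 453 reads in WT and 3930 in *SOX2* KO. The log2 fold change of 4.04 (SE 0.46) and the lack of overlap are descriptions only, because the gene was picked for them. WT embryos differed among themselves too, and nc5 had more than any other WT embryo. An embryo holds several cell types, so more cells that express a gene and more RNA per cell cannot be told apart in any value here.

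**Figure D1:**
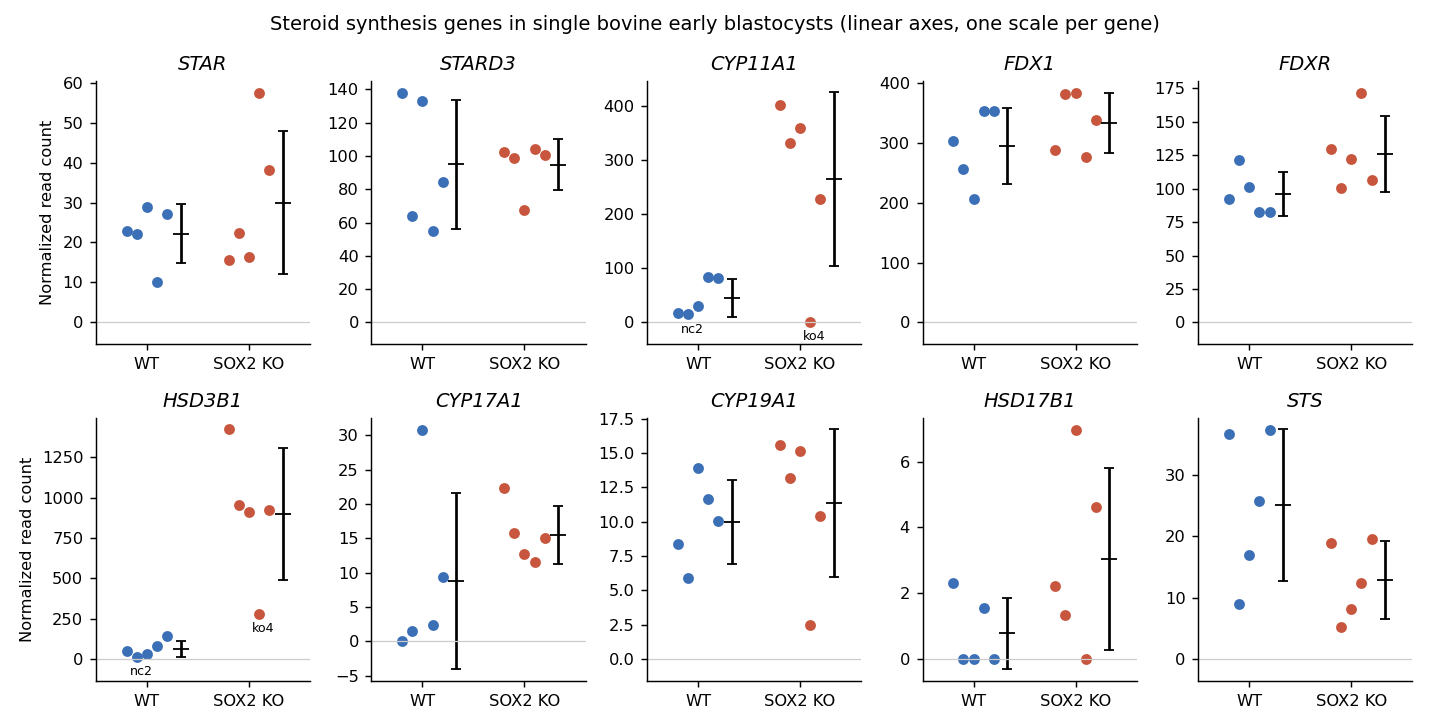
Normalized read count of the 10 steroid synthesis genes in each embryo, on linear axes with a separate scale for each gene. Points are embryos (blue for WT, red for *SOX2* KO), and bars are the mean and SD of 5 embryos. Only in the panels of *HSD3B1* and *CYP11A1* is the lowest embryo of each group, nc2 or ko4, marked. *HSD3B1*, chosen among genes without overlap of the groups, was at 13.3 to 144 against 281 to 1424. The other 9 genes, not chosen in this way, overlapped.

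Neither gene of cholesterol delivery to the side-chain cleavage enzyme passed the test. *STAR*, the steroidogenic acute regulatory protein that moves cholesterol into mitochondria, was at 22.9, 22.2, 28.8, 10.1 and 27.2 in WT and at 15.6, 22.4, 16.3, 57.5 and 38.1 in *SOX2* KO embryos. The highest *SOX2* KO embryo for *STAR* was ko4, the lowest for *HSD3B1*. The log2 fold change of *STAR* was 0.31 (95% interval -0.49 to 1.11, limma adjusted p = 0.598). *STARD3*, a related protein of late endosomes that binds cholesterol, was at 138, 63.8, 133, 55.2 and 84.4 in WT and at 102, 99.0, 67.4, 104 and 100.3 in *SOX2* KO embryos. The *SOX2* KO embryos fell within the range of the WT embryos. Its log2 fold change was 0.08 (95% interval -0.44 to 0.59, limma adjusted p = 0.859), and its sign turned under 4 of 12 settings.

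*CYP11A1*, the enzyme that makes pregnenolone and so the substrate of HSD3B1, was high in 4 of the 5 *SOX2* KO embryos. It was at 16.8, 14.8, 29.8, 83.9 and 82.6 in WT and at 402, 331, 359, 1.64 and 228 in *SOX2* KO embryos. The groups overlapped through ko4 alone, which had 2 reads of *CYP11A1*, fewer than any WT embryo. The other 4 *SOX2* KO embryos were all above the highest WT embryo. The mean ± SD (n = 5 each) was 45.6 ± 34.9 in WT and 265 ± 160 in *SOX2* KO, from 310 and 1121 reads. The log2 fold change was 1.78 (SE 0.94, 95% interval -0.19 to 3.74, limma adjusted p = 0.196), so *CYP11A1* did not pass the test. This call rested on ko4, and without that embryo the log2 fold change was 3.17 (adjusted p = 9.96e-05). It also turned with the test on reads, since edgeR called the gene (log2 fold change 2.38, adjusted p = 0.0164) and DESeq2 did not (2.53, adjusted p = 0.0577). With the *RN18S1* share as a covariate the log2 fold change was 0.69 (adjusted p = 0.833).

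CYP11A1 takes its electrons from ferredoxin, which is reduced by ferredoxin reductase, and neither partner passed the test. Ferredoxin, *FDX1*, was at 303, 257, 207, 354 and 354 in WT and at 288, 383, 384, 277 and 339 in *SOX2* KO embryos. For *FDX1* the log2 fold change was 0.20 (95% interval -0.16 to 0.56, limma adjusted p = 0.448). The upper bound lies below a doubling, in contrast to the interval of *CYP11A1*. The reductase, *FDXR*, was at 92.3, 122, 101, 82.4 and 82.6 in WT and at 129, 100.4, 122, 172 and 106 in *SOX2* KO embryos, with a log2 fold change of 0.38 (95% interval -0.02 to 0.77, adjusted p = 0.177). Both proteins also serve other mitochondrial enzymes and iron-sulfur cluster assembly, and ko4 was the highest embryo for *FDXR*.

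*CYP17A1*, the 17alpha-hydroxylase and 17,20-lyase on the way to androgens, had few reads and a single high WT embryo. It was at 0, 1.48, 30.8, 2.33 and 9.44 in WT and at 22.3, 15.8, 12.8, 11.5 and 15.0 in *SOX2* KO embryos. All *SOX2* KO embryos were above 4 of the 5 WT embryos, and nc3 was above all of them. The log2 fold change was 1.72 (SE 0.68, limma adjusted p = 0.0898) and became 2.40 without nc3 (adjusted p = 0.0133), which then passed the test. On recovered reads it was 0.81 in DESeq2 (adjusted p = 0.479) and 0.73 in edgeR (adjusted p = 0.484).

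The oestrogen-forming enzymes had few reads. *CYP19A1*, aromatase, was at 8.39, 5.93, 13.9, 11.7 and 10.03 in WT and at 15.6, 13.2, 15.1, 2.46 and 10.4 in *SOX2* KO embryos. The WT embryos lay between the extremes of the *SOX2* KO embryos, with ko1 and ko3 above and ko4 below every WT embryo. The log2 fold change of *CYP19A1* was 0.03 (95% interval -0.97 to 1.03, limma adjusted p = 0.976). A change of up to about a doubling either way was therefore not excluded. *HSD17B1*, which reduces oestrone to oestradiol, had 5 reads in all WT embryos and 13 in all *SOX2* KO embryos. It was at 2.29, 0, 0, 1.55 and 0 in WT and at 2.23, 1.32, 6.98, 0 and 4.61 in *SOX2* KO embryos (log2 fold change 1.06, 95% interval -0.22 to 2.35, adjusted p = 0.237). A count of 0 allows up to 3 reads, and with so few reads a change of *HSD17B1* was neither shown nor excluded.

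*STS*, the steroid sulfatase that frees steroids from their sulfates, was the only member with a lower estimate in *SOX2* KO embryos. It was at 36.6, 8.90, 16.9, 25.6 and 37.2 in WT and at 18.9, 5.28, 8.14, 12.3 and 19.6 in *SOX2* KO embryos. The 3 highest values were in WT, but the groups overlapped. Its log2 fold change was -0.89 (95% interval -1.81 to 0.03, limma adjusted p = 0.170). *STS* is a gene of the sex chromosomes, and with *XIST* as a covariate its log2 fold change was -0.96 (adjusted p = 0.120). Without nc2 and ko4, the embryos lowest in *XIST*, it was -1.22 (adjusted p = 0.0601).

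**Figure D2:**
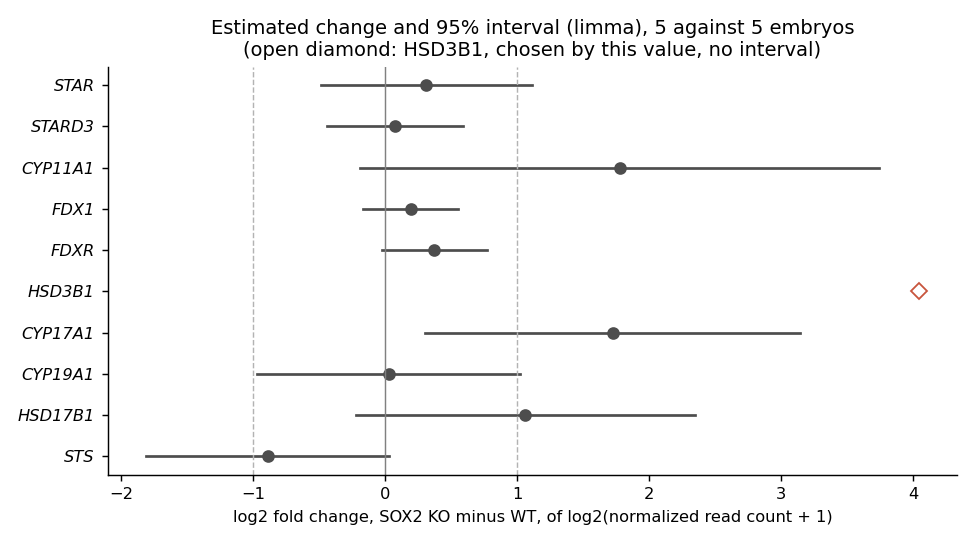
Log2 fold change of each of the 10 genes, *SOX2* KO minus WT, on the log2(normalized read count + 1) scale with its 95% interval from limma over 5 against 5 embryos. Dashed lines mark a doubling and a halving, and *HSD3B1* (4.04, open diamond) is drawn without an interval because it was chosen by this value. The interval of *CYP11A1* ran from -0.19 to 3.74 and that of *FDX1* from -0.16 to 0.56.

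Of the 9 genes other than *HSD3B1*, limma called 0. A call needed an adjusted p no higher than 0.05 together with a doubling or a halving of the level. Over all 20056 genes tested, 8.93% were called higher and 1.16% lower in *SOX2* KO embryos. Without adjustment, 1 of the 9 had a p under 0.05 (*CYP17A1*), DESeq2 called 0 of them and edgeR called 1 (*CYP11A1*). The groups overlapped for all 9, and 9.17% of all genes tested had no overlap. The estimates were above 0 for 8 genes and below 0 for 1, with a median log2 fold change of 0.31 beside 0.25 over all genes tested. The steps around *HSD3B1* gave no calls, which for 9 genes is close to the shares over all genes. These counts therefore do not set the 9 apart from other genes. Their estimates were near the median of all genes except for *CYP11A1*, *CYP17A1*, *HSD17B1* and *STS*.

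Within groups, embryos low in *HSD3B1* were often low in *CYP11A1*. In WT, nc2 had the lowest level of both genes, and nc4 and nc5 had the highest 2 of both. In *SOX2* KO, ko4 was lowest in both and ko1 highest in both. The same embryos, nc2 and ko4, were lowest in *XIST* in their groups, and the part of *XIST* in these levels was not tested beyond the following fits. With *XIST* as a covariate the log2 fold change was 3.85 for *HSD3B1* and 1.40 for *CYP11A1* (limma adjusted p = 0.158 for *CYP11A1*). With nc2 and ko4 left out they were 3.98 and 2.87 (adjusted p = 7.94e-05 for *CYP11A1*).

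**Figure D3:**
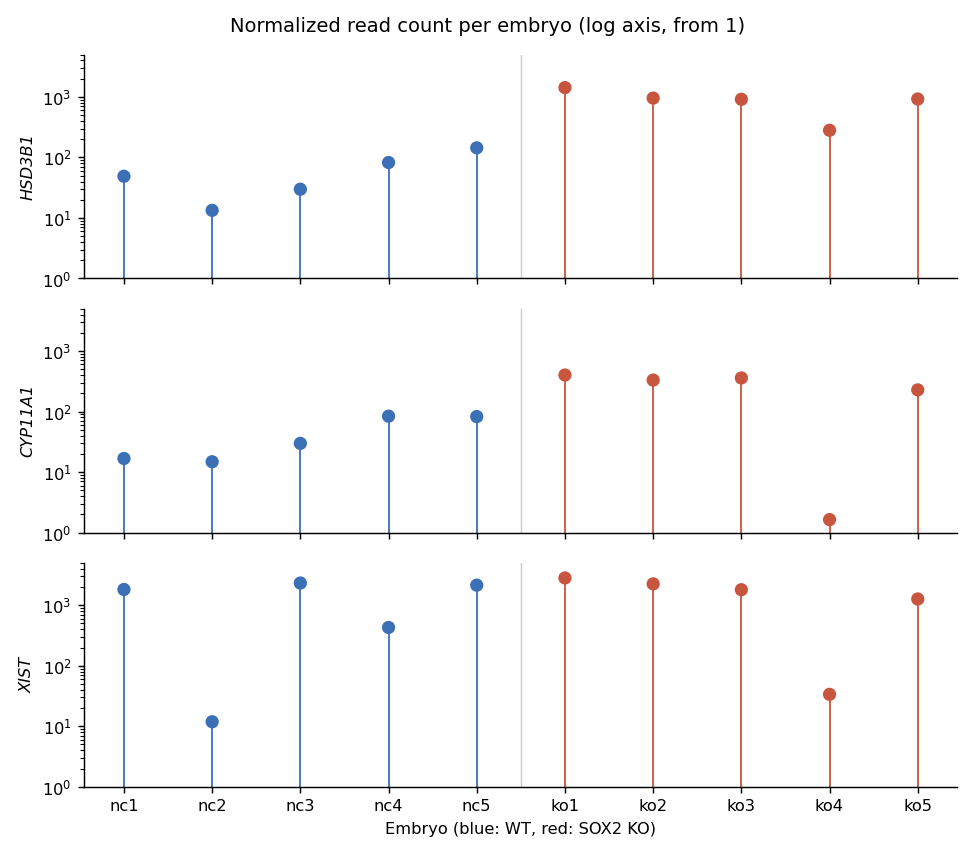
Normalized read count of *HSD3B1*, *CYP11A1* and *XIST* in each of the 10 embryos, on a log axis that starts at 1 (blue, WT; red, *SOX2* KO). In the embryo ko4 *CYP11A1* was at 1.64 and *HSD3B1* at 281, and *XIST* was lowest in nc2 (11.9) and ko4 (33.7).

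Likeness to *HSD3B1* was measured by Pearson correlation of log2(normalized read count + 1) over the 10 embryos, among the 11334 genes that averaged 10 or more. The 5 most alike were *MUC1* (0.980), *SYNE2* (0.978), *GCA* (0.976), *PRAG1* (0.974) and *DEGS1* (0.969). *MUC1* codes for a cell-surface mucin, *SYNE2* for a nesprin of the nuclear envelope, *GCA* for the calcium-binding grancalcin and *DEGS1* for a desaturase of sphingolipid synthesis. These correlations include the difference between the groups. By deviations from the group means the most alike included *ALCAM* (0.959), *SAT1* (0.955), *CAPN6* (0.954) and *DYNLT3* (0.951), none of which was called between the groups. *CYP11A1* ranked 1372 by the first measure (0.654) and 387 by the second (0.755). *FDX1* and *CYP19A1* each had 0.658 by deviations, while *FDXR* had -0.817 and *STAR* -0.488. All these figures are descriptions over 10 points that share library, depth and the low values of nc2 and ko4.

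Other enzymes of steroid metabolism were taken from a list of 50 genes, of which 37 were in the table and tested. limma called 3 of them higher (8.11%, beside 8.93% of all genes) and 0 lower. Without adjustment, 8 had a p under 0.05 and a higher level and 3 a lower level, and neither DESeq2 nor edgeR called any lower. The median log2 fold change was 0.46, and 14 of the 37 had a mean under 10. *SDR42E2*, a relative of the 3beta-hydroxysteroid dehydrogenases, rested on 9 reads in WT and 41 in *SOX2* KO (adjusted p = 0.0317), and *RDH16*, which oxidizes retinol and androgens, on 3 and 22 reads. The ratio of *RDH16* was 9.52 (95% counting interval 2.86 to 49.7, adjusted p = 0.0458). When single embryos were dropped, *SDR42E2* stayed called only without nc3, ko2 or ko4, and *RDH16* only without nc3 or ko4, with adjusted p of up to 0.0919 and 0.106 otherwise.

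The most abundant of the enzymes that were not called went in both directions. *HSD17B10*, a mitochondrial dehydrogenase of steroids and fatty acids, was at 833 ± 140 in WT and 490 ± 75.3 in *SOX2* KO (SD, n = 5 each), and its groups did not overlap. It passed the adjusted p (0.00504 in limma) but not the fold threshold, with a log2 fold change of -0.76. *AKR1B1*, an aldo-keto reductase that makes prostaglandin F2alpha and reduces progesterone, was at 234, 262, 200, 774 and 890 in WT and at 906, 853, 1027, 306 and 919 in *SOX2* KO embryos. In WT, nc4 and nc5 were its 2 highest, as for *HSD3B1*, and ko4 was again lowest of its group. The log2 fold change of *AKR1B1* was 0.94 (limma adjusted p = 0.0878), and it was called without nc4 (1.19), without nc5 (1.24) or without ko4 (1.26). *HSD17B11* had -0.52 (adjusted p = 0.0502), *NSDHL*, of cholesterol synthesis, -0.03 (0.959) and *CYB5R3*, a cytochrome b5 reductase, 0.24 (0.237).

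Genes that supply cholesterol formed a list of 27, of which 26 were tested. limma called 3 higher (11.5%, beside 8.93% of all genes) and 1 lower (3.85%, beside 1.16%), with a median log2 fold change of 0.26. *PLIN2*, the coat protein of lipid droplets in which cholesterol esters are stored, fell. It was at 473, 400, 283, 383 and 436 in WT and at 185, 226, 201, 105 and 164 in *SOX2* KO embryos, without overlap. Its mean was 395 ± 71.4 in WT and 176 ± 45.7 in *SOX2* KO (SD, n = 5 each; log2 fold change -1.19, SE 0.20, limma adjusted p = 0.000841). *PLIN2* was called lower under every alternative run.

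*LRP1*, an endocytic receptor of lipoprotein remnants, rose. It was at 14.5, 20.8, 23.9, 28.8 and 30.7 in WT and at 75.7, 66.0, 82.6, 44.4 and 92.2 in *SOX2* KO embryos, without overlap (log2 fold change 1.57, SE 0.27, limma adjusted p = 0.00126). *ABCG1*, which exports cholesterol to lipoproteins, had 3 reads in WT and 51 in *SOX2* KO, a ratio of 22.1 (95% counting interval 7.14 to 111, adjusted p = 0.00463). *NCEH1*, a cholesterol ester hydrolase, rose from 21.7 to 45.7 (log2 fold change 1.06, adjusted p = 0.0199), and the call was lost without nc3 (0.89), without ko1 (0.94), with a pseudocount of 5 (0.93), with quantile normalization (0.94) and with edgeR (0.97). With the *RN18S1* share as a covariate, *NCEH1* and *PLIN2* were called. *LRP1* (log2 fold change 1.38, adjusted p = 0.0510) and *ABCG1* (2.07, adjusted p = 0.171) were not.

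The most abundant supply gene, *DBI*, which codes for an acyl-CoA binding protein that also binds the translocator protein TSPO, was at 1990 ± 713 in WT and 1069 ± 509 in *SOX2* KO (SD, n = 5 each). Its log2 fold change of -0.97 passed the adjusted p (0.0394 in limma) and not the fold threshold, which it did pass without nc3 (-1.19), without ko1 (-1.11) or without ko5 (-1.16). The remaining abundant genes were not called. *VDAC2*, a channel of the outer mitochondrial membrane, had a log2 fold change of -0.42 (limma adjusted p = 0.167) and *ABCA1*, a cholesterol exporter, -0.45 (0.0967). *SOAT1*, which esterifies cholesterol, had 0.28 (0.252) and *LRPAP1*, a chaperone of *LRP1*, 0.29 (0.279).

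Transcription factors linked to steroidogenic genes formed a list of 34, of which 30 were tested. limma called 3 higher (10%, beside 8.93% of all genes) and 0 lower (beside 1.16%), with a median log2 fold change of 0.41. Without adjustment, 7 had a p under 0.05 and a higher level and 2 a lower level, and DESeq2 and edgeR called 0 lower. *DLX3*, a homeobox factor of the trophoblast, was at 42.7, 19.3, 83.5, 75.4 and 42.5 in WT and at 148, 141, 170, 91.2 and 197 in *SOX2* KO embryos. Its groups did not overlap, and nc2 and ko4 were again the lowest of each (log2 fold change 1.61, SE 0.31, limma adjusted p = 0.00283). *DLX4*, its neighbour in the same family, rose from 42.7 to 88.0 (log2 fold change 1.09, adjusted p = 0.00968), and it was no longer called without nc2 (0.86), without nc2 and ko4 (0.85) or with edgeR (0.94). *NR5A1*, which codes for steroidogenic factor 1, the main activator of steroidogenic genes in gonad and adrenal, had no read in any WT embryo. In *SOX2* KO embryos it was at 8.91, 1.32, 3.49, 7.39 and 11.5, from 31 reads in all. Against a floor of 3 reads per WT embryo it was at least 2.36-fold higher (adjusted p = 0.00442). All 3 calls were lost with the *RN18S1* share as a covariate, where the fitted log2 fold change went from 2.68 to 2.37 for *NR5A1*, from 1.61 to 0.96 for *DLX3* and from 1.09 to 0.81 for *DLX4*.

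The most abundant of the regulators were not called. *TFAP2C*, an AP-2 factor of the trophectoderm, was at 791 ± 79.5 in WT and 565 ± 95.3 in *SOX2* KO (SD, n = 5 each), with a log2 fold change of -0.49 and an adjusted p of 0.0352 in limma. It therefore passed the adjusted p and not the fold threshold. *GATA6* had a log2 fold change of -0.12 (adjusted p = 0.584), *KLF5* -0.42 (0.104), *GATA3* 0.13 (0.617) and *SP1* -0.30 (0.211).

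Receptors for steroids and gonadotrophins formed a list of 16, all of which were tested. limma called 4 higher (25%) and 0 lower, with a median log2 fold change of 0.72. Without adjustment, 5 had a p under 0.05 and a higher level and 0 a lower level, and DESeq2 and edgeR called 0 lower. All 4 called genes had a mean under 10, as had 11 of the 16, and over all genes with such a mean 14.1% were called higher. *PAQR8* and *PAQR7*, membrane progesterone receptors, had 9 and 2 reads in WT and 40 and 26 in *SOX2* KO (adjusted p = 0.0197 and 0.0296). The ratio for *PAQR7* was 16.9 (95% counting interval 4.23 to 147). *GPER1*, a membrane receptor of oestrogens, had 0 and 17 reads, at least 1.35-fold higher against the floor of 3 reads per WT embryo (adjusted p = 0.0413). The embryo ko1 held 8 of the 17 reads of *GPER1*. When single embryos were dropped, *GPER1* stayed called only without ko2 or ko4, with adjusted p of up to 0.112 otherwise. *PAQR7* was lost without nc2, nc4, ko1 or ko5 (adjusted p up to 0.0888) and *PAQR8* without ko3 or ko5 (up to 0.0556).

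Among the abundant receptors, *PGRMC2*, a membrane-associated progesterone-binding protein, was at 221 ± 35.5 in WT and 359 ± 73.5 in *SOX2* KO (SD, n = 5 each) without overlap. It passed the adjusted p (0.0120 in limma) but not the fold threshold (log2 fold change 0.69). *PGRMC1*, its paralogue, had -0.16 (adjusted p = 0.748). *FSHR* had 0.38 (0.635), the mineralocorticoid receptor *NR3C2* 0.03 (0.980) and the glucocorticoid receptor *NR3C1* 0.09 (0.932), and the sign of these 4 turned under at least 1 alternative.

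**Figure D4:**
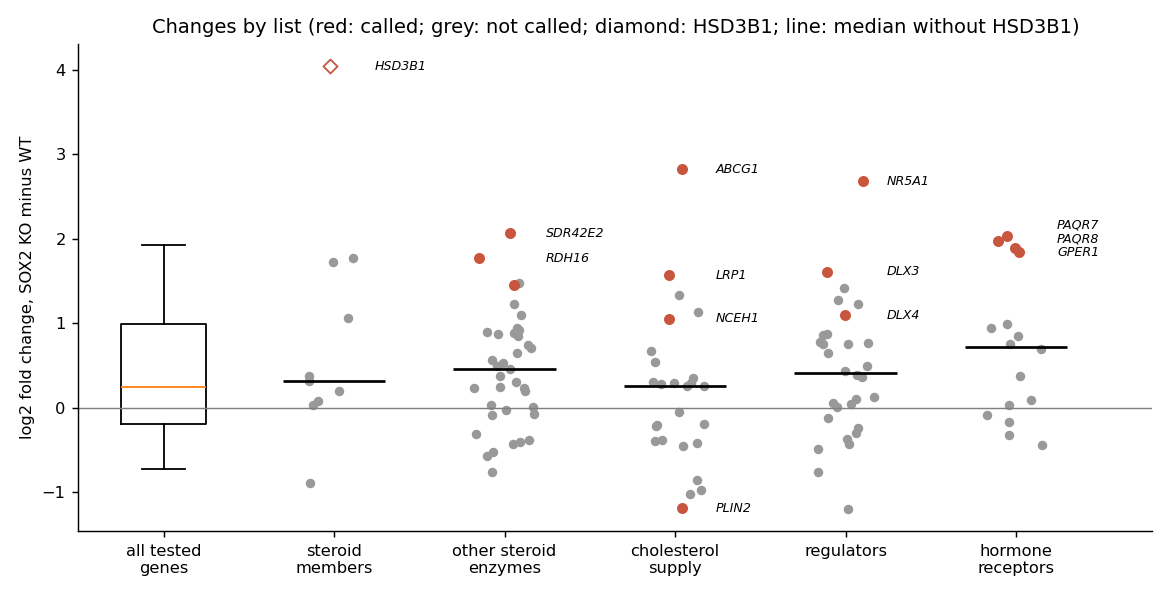
Log2 fold change (*SOX2* KO minus WT) of all tested genes (box with median, quartiles and whiskers at percentiles 5 and 95) and of each gene in the 5 lists. Red points were called, and those described in the text carry their name, grey points were not called, the open diamond is *HSD3B1*, and black lines are list medians without *HSD3B1*, 0.31 for the steroid members beside 0.25 for all tested genes.

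Markers of the cell types in or around the embryo were summed per embryo and set beside the steroid genes. Trophectoderm markers summed to 28185 to 40669 in WT against 38456 to 51416 in *SOX2* KO. Of 14 tested, limma called 1 higher (*ELF3*, 7.14%, beside 8.93% of all genes). The keratins *KRT8* and *KRT18* made up most of these sums, which without them were 4715 to 6943 and 6404 to 7695. Members also had lower estimates, *TFAP2C* (above), *ATP1B1* (log2 fold change -0.71, adjusted p = 0.327) and *SLC2A1* (-0.11, adjusted p = 0.653). Of the placental binucleate cell markers 4 of 8 were tested. *PAG1* was called higher and *GCM1* lower (25% each, beside 8.93% and 1.16% of all genes). The symbol *PAG1* also stands for an adaptor protein unrelated to the pregnancy-associated glycoproteins, and which of them the table counts is uncertain. The sums were 44.5 to 84.4 in WT against 87.2 to 186 in *SOX2* KO, and without *PAG1* they were 38.6 to 52.1 and 8.91 to 29.1. *GCM1* alone carried this fall (log2 fold change -3.71). *HAND1* (0.67) and *SULT1E1* (0.88) had estimates above 0 and were not called. Hypoblast markers summed to 9400 to 16729 in WT against 5198 to 7966 in *SOX2* KO. Of 10 tested, 1 was called higher (*APOA1*, 10%, beside 8.93% of all genes). Another 4 were called lower (40%, beside 1.16%), among them *HNF4A*, *PDGFRA* and *FN1*. *FN1* carried the difference of the sums, which without it were 1680 to 2106 and 1892 to 2110. Epiblast markers summed to 2608 to 3040 in WT against 1257 to 1780 in *SOX2* KO. Of 11 tested, 5 were called lower (45.5%, beside 1.16% of all genes), namely *NANOG*, *KLF17*, *ZFP42*, *PRDM14* and *DPPA3*. Among the other epiblast markers, 1 passed the adjusted p and not the fold threshold. The part of these cell types in the level of *HSD3B1* was not tested.

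Cumulus and granulosa cells, the steroid-making cells around the oocyte, were removed by pipetting before culture. Of their 13 markers 10 were tested. *PTGS2*, which is also on the trophectoderm list, made up most of their sum, which was 475 to 2156 in WT against 955 to 2190 in *SOX2* KO. Without *PTGS2* the sums were 7.42 to 52.1 in WT against 34.5 to 73.9 in *SOX2* KO, and 8 of the 10 markers had a mean under 10. *FOXL2*, a defining factor of granulosa cells, had at most 5 reads in any embryo and 0 in nc2, ko2 and ko3. *AMH* had at most 6 reads. *FSHR*, also on this list, had more, with 143 reads in all WT and 110 in all *SOX2* KO embryos. It was at 2.97 to 39.6 in WT and at 14.5 to 37.0 in *SOX2* KO. Estimates were above 0 for 9 of the 10 markers and below 0 for 1. *DCN* was the single marker called, with a higher level in *SOX2* KO (10% of those tested, beside 8.93% of all genes). The part of such cells in the steroid values was not tested.

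**Figure D5:**
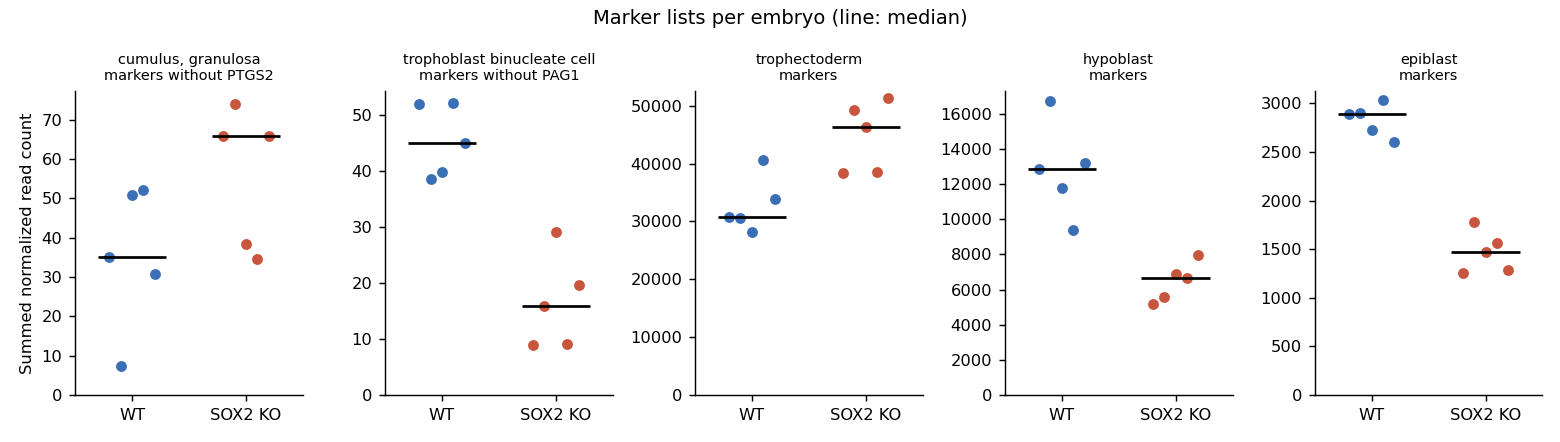
Summed normalized read count of 5 marker lists in each embryo (points; blue, WT; red, *SOX2* KO) with the group median as a line, on linear axes from 0. Epiblast sums were 2608 to 3040 in WT against 1257 to 1780 in *SOX2* KO, and cumulus and granulosa sums without *PTGS2* were 7.42 to 52.1 and 34.5 to 73.9.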

How the data were processed

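Paired-end 150 bp Smart-seq2 reads of 10 single embryos were, per the labels and the paper, trimmed with Trimmomatic, aligned with Hisat2 to the ARS-UCD1.2 build and assigned to genes by featureCounts. The deposited values are a normalized signal, reads divided by the DESeq2 size factor that the authors computed for each embryo. The annotation, the strand setting and the treatment of reads shared between paralogs or overlapping genes are not given in the sources used here, so genes with near copies, the 3beta-hydroxysteroid dehydrogenases included, are uncertain to that extent. All 201120 values (100%, tolerance 0.001 reads) were whole multiples of a step per embryo, and reads were recovered from them. The table holds genes with at least 11 reads in all. Columns were assigned to groups by their names.

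Differences were tested with limma 3.58.1 (lmFit, eBayes with trend, R 4.3.3) on log2(normalized read count + 1) over 20056 genes with a mean of at least 1, which understates changes of low genes. A gene was called when its p, adjusted by Benjamini-Hochberg, did not exceed 0.05 and its fold change reached 2 or 0.5. edgeR 4.0.16 (quasi-likelihood) and DESeq2 1.42.0 were run on the recovered reads and called 1686 and 1837 genes higher and 299 and 239 lower, beside 1792 and 232 in limma. Other alternatives were the pseudocount, scaling, filters, covariates and leaving out embryos. The tests were checked on simulated data in which 200 genes were changed 4-fold. Of these limma recovered 193, edgeR 197 and DESeq2 198, with 9, 8 and 10 false calls. Genes with few reads were not among those changed, so the check does not cover their calls. Nothing states that embryos of a group came from separate oocyte donors or fertilizations, so p-values measure only the spread between these embryos. Reads carry no molecular identifiers, so counting intervals and the floor of 3 reads cover counting error only.

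The members and the lists were chosen with earlier results of these data known, and no p was adjusted over a list alone. The text names all members, the called genes of the 4 further lists (at most 8 per list), the 5 most abundant genes of each list that were not called, the 5 genes most like *HSD3B1* by either measure, *SOX2*, *XIST*, *RN18S1* and listed markers. *MUC19*, next to *HSD3B1* in size of change, was added after its value was seen. Of 186 listed symbols 157 were in the table, and the others were not analysed here. Some genes that this rule would name are not reported here, although they stay in the counts of their lists.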

Additional observations from a re-analysis of the deposited data

Results flagged for a closer look

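Within each group of 5 embryos, the gap between an extreme embryo and its neighbour was compared with the whole range on the log2 scale for the 10 steroid genes. Chance alone gives about 1 extreme in the 20 groups examined, and 5 were found. Of these 3 were in the embryo ko4. *CYP11A1* was at 1.64 in ko4, while the other *SOX2* KO embryos were at 228 to 402. *HSD3B1* was at 281 in ko4, with the others at 913 to 1424. *CYP19A1* was at 2.46 in ko4, with the others at 10.4 to 15.6. *STARD3* was at 67.4 in the *SOX2* KO embryo ko3, below the 99.0 to 104 of the others. *STAR* was at 10.1 in the WT embryo nc4, below the 22.2 to 28.8 of the others.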

How the results depend on the processing

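*HSD3B1* had a log2 fold change of 3.60 to 4.44 with each embryo left out in turn. Under 12 other settings the change was 3.66 to 4.08. These values are a description only, because the gene was picked for its change in the same embryos. The 9 other members, with 0 calls, had 1 with edgeR, 1 with nc2 and ko4 left out (a setting chosen after seeing the data) and 0 to 1 with single embryos left out. The other steroid enzymes, with 3 calls, had 1 with a pseudocount of 0.1, quantile normalization, a mean of at least 10 or edgeR, 0 with the *RN18S1* share as a covariate, 5 without nc2 and ko4, and 1 to 5 with single embryos left out (5 without ko4). With the *RN18S1* share as a covariate, calls went from 4 to 2 among supply genes, from 3 to 0 among regulators and from 4 to 0 among receptors. Receptors had 1 call with a pseudocount of 5, 0 with quantile normalization and 0 with a mean of at least 10. With single embryos left out, supply genes had 4 to 5 calls, regulators 2 to 4 and receptors 0 to 4.

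Signs turned only for genes that were not called. *STARD3* had log2 fold changes of -0.0064 with DESeq2, -0.089 with edgeR, -0.098 with the *RN18S1* share, -0.080 without nc2 and ko4, and -0.093 to 0.23 with single embryos left out. *CYP19A1* had -0.00086 with a pseudocount of 0.1, -0.47 with quantile normalization, -0.11 with *XIST*, -0.47 with the *RN18S1* share and -0.13 to 0.44 with single embryos left out. *NSDHL* had 0.058 with quantile normalization and -0.28 to 0.23 with single embryos left out, *GATA3* -0.16 with the *RN18S1* share, and *PGRMC1* -0.37 to 0.15 with single embryos left out. *FSHR* had -0.033 with edgeR, -0.32 with the *RN18S1* share, -0.15 without nc2 and ko4 and -0.18 to 0.66 with single embryos left out. *NR3C2* had -0.056 with a pseudocount of 0.1, -0.44 with quantile normalization, -0.044 with *XIST*, -0.53 with the *RN18S1* share and -0.38 to 0.67 with single embryos left out. *NR3C1* had -0.28 with quantile normalization, -0.0041 with *XIST*, -0.26 with the *RN18S1* share and -0.16 to 0.61 with single embryos left out.

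Quantile normalization moved the median log2 fold change of all genes from 0.25 to -0.02 and the calls over all genes to 629 higher and 447 lower. With the *RN18S1* share as a covariate there were 137 higher and 83 lower, and without ko4 there were 3050 and 266. The causes were not tested. Genes with few reads, *HSD17B1* and *GPER1* among them, are limited by depth. No paired analysis was possible because the *SOX2* KO columns do not carry the replicate numbers of the labels. Neither the labels nor the paper states that a WT and a *SOX2* KO embryo with the same replicate number form a pair.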
